A study of Macaca mulatta with 45 samples.

Results

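The question addressed here is whether total body irradiation (TBI) of rhesus macaques left a different transcriptional change in brain white matter than in grey matter. All libraries titled TBI Animal or Control Animal were used, which is 30 of the 45 libraries of the series. They came from 3 regions of 10 animals: deep white matter of the centrum semiovale, hippocampus, and dorsolateral prefrontal cortex (Brodmann area 46). Each animal gave 1 RNA-seq library per region, and the 3 libraries of an animal were kept together as a block in the analysis.

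The 5 TBI animals had received a single dose to the whole body 6 to 9 years before necropsy. By label the dose was 6.75 Gy in Animals 1 and 2, 7.2 Gy in Animals 3 and 4, and 8.05 Gy in Animal 5. The 5 control animals were irradiated too: they received 10 Gy to the thorax, with a labelled brain dose of 0.1 Gy that the series design gives as an upper estimate. The controls are therefore a low brain dose group and not unirradiated animals, and the doses among TBI animals differed. The ages and sexes of these animals are not in the labels used here. A further 5 animals, with 15 libraries, had received fractionated whole brain irradiation (fWBI), 40 Gy in 8 fractions of 5 Gy, 12 months before necropsy, and are used once below as a second irradiated group.

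White matter consists mainly of myelinated axons with oligodendrocytes, their precursors, astrocytes, microglia and vessels, and holds few neuronal cell bodies. Grey matter holds the neuronal cell bodies and synapses. Late radiation injury of the brain is known for its effect on white matter, where loss of myelin, damage to vessels and reactions of microglia and astrocytes have been described. In RNA from whole tissue, fewer cells of a type and less RNA per cell cannot be told apart, and neither can a difference between animals in how much adjoining grey matter was dissected.

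The TBI effect in a region is the log2 difference between TBI and control animals. The quantity reported below is the TBI effect in white matter minus the mean of the effects in hippocampus and prefrontal cortex, called the white-grey interaction. A positive value means that TBI animals were higher relative to controls in white matter than in grey matter. The library totals ran from 6625435 to 12075205 counts. Levels are given in CPM, counts scaled to the depth of each library, which are not scaled by gene length.

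The libraries were first checked against their labels with pan-neuronal genes, which code for synaptic, cytoskeletal and other proteins found across neurons. Their mean level in the white matter of Control Animals 1 to 5 was 8.48, 4.78, 7.44, 5.20 and 5.00 log2 CPM. In the white matter of TBI Animals 1 to 5 it was 4.83, 5.23, 4.74, 5.01 and 5.48 log2 CPM. The white matter of Control Animals 1 and 3 therefore stood apart from the other 8 white matter libraries, and Control Animal 1 lay within the grey matter range of 8.24 to 8.82 log2 CPM in controls. Myelin genes in the same 2 libraries had means of 10.2 and 10.9 log2 CPM, against at most 8.43 log2 CPM in control grey matter, so these libraries carried high levels of both marker sets. SNAP25, a synaptic fusion protein gene, ranged from 111 to 2290 CPM in control white matter and from 100 to 237 CPM in TBI white matter. The interaction is given with all 30 libraries and again with 28, without the white matter of Control Animals 1 and 3.

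**Figure D1:**
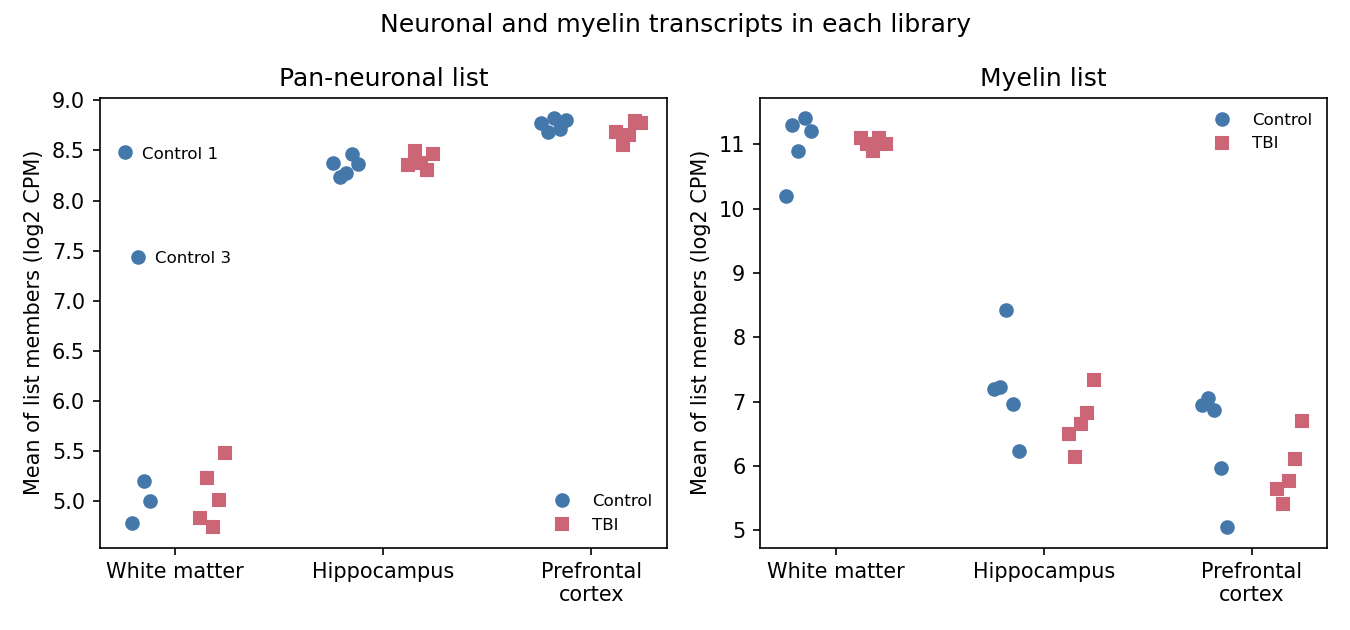
Mean log2 CPM of the pan-neuronal genes (left) and the myelin genes (right) in each of the 30 libraries, by region, with control animals as circles and TBI animals as squares. The white matter of Control Animals 1 and 3 sits at 8.48 and 7.44 log2 CPM for the neuronal genes, whereas the other white matter libraries lie between 4.74 and 5.48.

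Few single genes had a TBI effect that differed between white and grey matter. With all 30 libraries, 3 of 16076 tested genes passed the threshold of an adjusted p of 0.05 (0.0187% of genes tested) in edgeR's quasi-likelihood test, and all 3 were higher. They were OAF, ADAMTSL2 and a gene without a symbol in the table of names used, ENSMMUG00000000976. With 28 libraries, 4 genes passed (0.0249%), namely ENSMMUG00000000976 and ICAM1, which were higher, and LTBP2 and ENSMMUG00000009980, which were lower. ENSMMUG00000000976 was the 1 gene that passed in both. The counts depended on the tool: DESeq2 called 201 genes with 30 libraries and 32 with 28, and limma on the per-animal differences called 0 in both. They also depended on single animals: with 30 libraries, 138 genes passed without Control Animal 5 and 57 without Control Animal 2, and 1 passed without Control Animal 3 or 4 or TBI Animal 2, 3 or 5. The genes with an ID alone are named because they make up counts this small, and were chosen after their values were seen.

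The gene ENSMMUG00000000976 was measured in white matter at 14.3, 24.6, 12.8, 28.0 and 14.1 CPM in Control Animals 1 to 5. The white matter of TBI Animals 1 to 5 held 79.3, 99.6, 85.2, 46.9 and 77.9 CPM. All 5 TBI animals were above all 5 controls there, while in grey matter the 20 libraries of both groups lay between 9.25 and 19.0 CPM. Its white-grey interaction was 2.27 ± 0.28 (SE, n = 5 animals a group, adjusted p = 0.00112, edgeR) with 30 libraries and 1.99 ± 0.30 (n = 5 and 3 for white matter, adjusted p = 0.0127, edgeR) with 28. The white minus grey difference of each animal was between -0.19 and 1.29 log2 units in controls and between 2.05 and 3.29 in TBI animals, with no overlap. With 30 libraries the call held when any 1 animal was left out, and with 28 libraries it was lost without Control Animal 4 or 5 or TBI Animal 2 or 3 (1.59 to 2.07, adjusted p up to 0.122, edgeR). Over all genes, TBI animals were higher without overlap for 0.871% and lower without overlap for 0.616%, and for 2.35% and 1.95% when only Control Animals 2, 4 and 5 were compared.

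OAF, which codes for a secreted protein, was lower in white than in grey matter in every animal, and less so after TBI. White matter of Control Animals 1 to 5 held 3.98, 4.46, 5.48, 2.49 and 2.87 CPM. White matter of TBI Animals 1 to 5 held 6.83, 11.1, 10.1, 7.90 and 8.19 CPM. The groups did not overlap in white matter, while in hippocampus they spanned 12.4 to 20.0 CPM in controls and 11.9 to 18.8 CPM in TBI animals. The interaction was 1.04 ± 0.16 (SE, n = 5 a group, adjusted p = 0.0181, edgeR) with 30 libraries. With 28 libraries it was 1.14 ± 0.20 (adjusted p = 0.0568, edgeR; 95% interval 0.71 to 1.58), a value of similar size that missed the threshold. The call was also lost when Control Animal 3 or 4, or TBI Animal 1, 2, 3 or 5, was left out, with values of 0.94 to 1.08 and adjusted p-values up to 0.207 (edgeR).

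ADAMTSL2 codes for a secreted glycoprotein of the extracellular matrix that binds fibrillin microfibrils. Its white minus grey difference in Control Animals 1 to 5 was 0.21, 0.15, -0.44, 0.05 and -0.53 log2 units. In TBI Animals 1 to 5 it was 0.58, 1.52, 1.13, 1.78 and 1.11 log2 units. All TBI animals were above all controls in this difference, with TBI Animal 1 closest to them. In CPM, white matter ranged from 6.07 to 11.3 in controls and from 8.86 to 28.6 after TBI, so levels in white matter alone overlapped. Prefrontal cortex ranged from 8.95 to 14.7 CPM in controls and from 7.72 to 10.5 CPM after TBI, and these lower levels also entered the interaction. Hippocampus ranged from 4.18 to 6.82 CPM in controls and from 4.19 to 7.99 CPM after TBI. The interaction was 1.37 ± 0.21 (SE, n = 5 a group, adjusted p = 0.0181, edgeR) with 30 libraries and 1.38 ± 0.25 (adjusted p = 0.0597, edgeR) with 28. Leaving out Control Animal 3 or 4, or TBI Animal 2, 3, 4 or 5, also ended the call, with values of 1.22 to 1.41 and adjusted p-values up to 0.163 (edgeR).

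**Figure D2:**
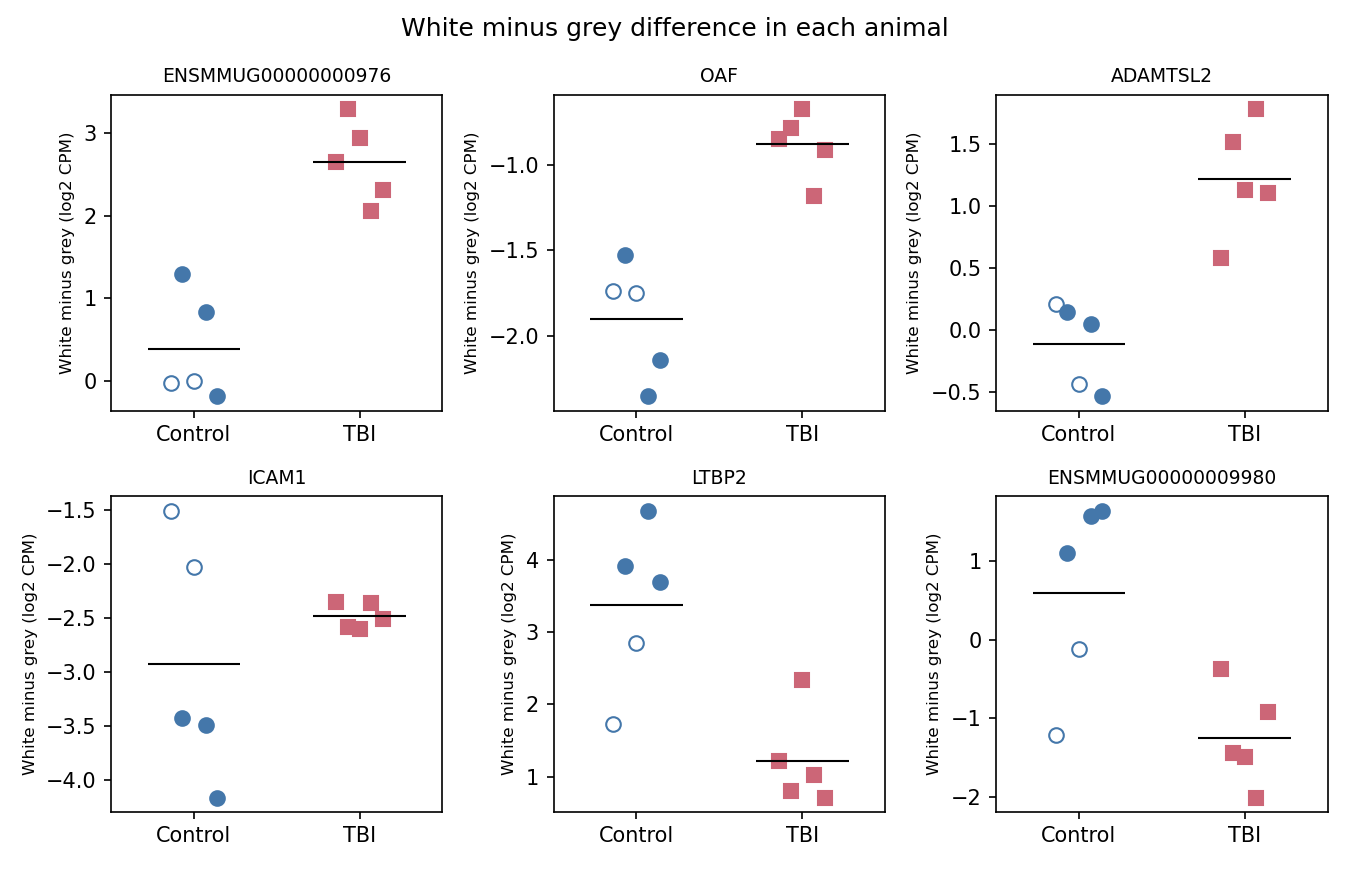
White minus grey difference in log2 CPM of each animal (white matter minus the mean of hippocampus and prefrontal cortex) for the 6 genes past the threshold in either analysis, with the mean of each group as a line and Control Animals 1 and 3 as open circles. The TBI animals lie above all 5 controls for ENSMMUG00000000976, OAF and ADAMTSL2, whereas for ICAM1, LTBP2 and ENSMMUG00000009980 an open circle lies beyond or within the TBI range.

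ICAM1 codes for an adhesion molecule that endothelial and immune cells use to bind leukocytes. White matter of Control Animals 1 to 5 held 36.8, 7.25, 22.5, 9.45 and 5.96 CPM, and that of TBI Animals 1 to 5 held 15.6, 15.3, 12.7, 15.8 and 13.4 CPM. Control Animals 1 and 3 were above all TBI animals and the other 3 controls were below them all. The interaction was 0.29 ± 0.34 (SE, n = 5 a group, adjusted p = 0.75, edgeR) with 30 libraries and 1.22 ± 0.18 (n = 5 and 3, adjusted p = 0.0127, edgeR) with 28. In hippocampus ICAM1 was measured at 112 to 160 CPM in controls and 115 to 147 CPM after TBI. In prefrontal cortex it was at 57.2 to 95.8 CPM in controls and 47.9 to 58.4 CPM after TBI. All these levels were above every white matter library, and the lower prefrontal cortex levels after TBI also entered the interaction. With 28 libraries the call was lost without Control Animal 5 or TBI Animal 2 or 4 (0.99 to 1.24, adjusted p up to 0.122, edgeR).

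LTBP2, an extracellular matrix protein gene of the latent TGF-beta binding protein family, was higher in white matter than the mean of both grey regions in all 10 animals. White matter of Control Animals 1 to 5 held 8.95, 26.0, 11.0, 26.9 and 21.1 CPM. White matter of TBI Animals 1 to 5 held 6.71, 6.10, 13.5, 4.27 and 5.46 CPM. TBI Animal 3 overlapped the 2 controls left out and was below the other 3. The interaction was -2.31 ± 0.51 (SE, adjusted p = 0.128, edgeR) with 30 libraries and -3.01 ± 0.48 (adjusted p = 0.0182, edgeR) with 28. The regional TBI effects in the separate fits were -1.38 in white matter (-1.76 without Control Animals 1 and 3), 1.20 in prefrontal cortex and 0.69 in hippocampus, so the grey regions entered this value with the opposite sign. With 28 libraries the call was lost without Control Animal 2, 4 or 5 or TBI Animal 2 or 4 (-2.73 to -3.22, adjusted p up to 0.22, edgeR).

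ENSMMUG00000009980 was measured in white matter at 1.77, 7.03, 2.09, 8.95 and 14.5 CPM in Control Animals 1 to 5. White matter of TBI Animals 1 to 5 held 1.32, 0.636, 0.671, 0.259 and 1.42 CPM. Every TBI animal was below every control in white matter, at low levels throughout. Its interaction was -2.10 ± 0.53 (SE, adjusted p = 0.134, edgeR) with 30 libraries and -2.75 ± 0.40 (adjusted p = 0.0127, edgeR) with 28. It was also the 1 gene that passed in the test of TBI against control within white matter without Control Animals 1 and 3 (0.00622% of genes tested), at -3.53 (adjusted p = 0.03, edgeR). With 28 libraries the interaction call was lost without Control Animal 5 or TBI Animal 2, 3 or 4 (-2.60 to -2.67, adjusted p up to 0.0973, edgeR).

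**Figure D3:**
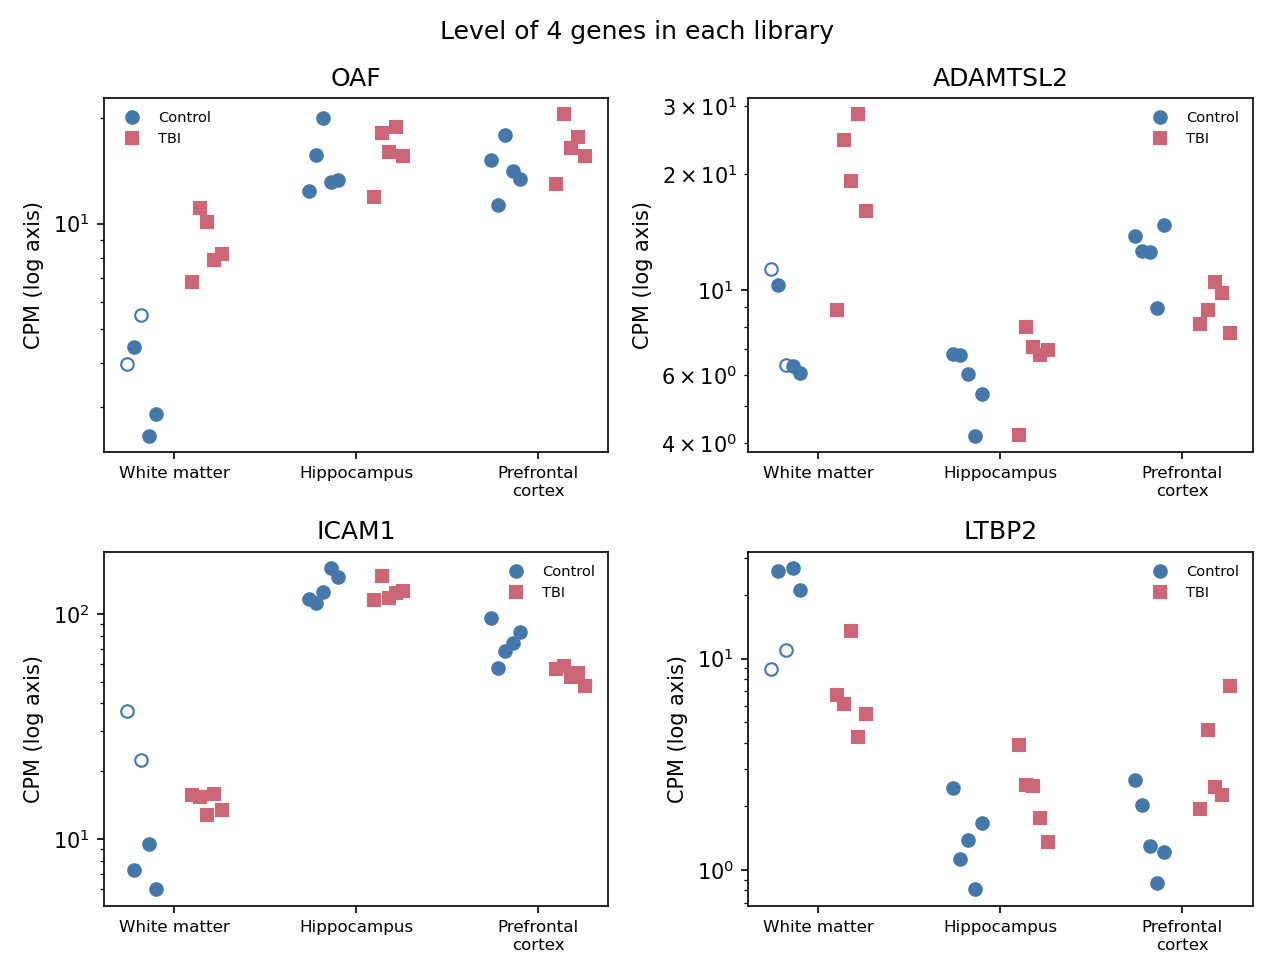
Level in CPM on a log axis of OAF, ADAMTSL2, ICAM1 and LTBP2 in each of the 30 libraries by region, with the white matter of Control Animals 1 and 3 as open circles. OAF is at 2.49 to 5.48 CPM in control white matter and 6.83 to 11.1 CPM in TBI white matter, whereas the 2 open circles of ICAM1, at 36.8 and 22.5 CPM, lie above the TBI values.

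Other genes among the smallest p-values did not pass the threshold. ADAM33, a membrane-bound metalloprotease gene, had an interaction of 1.39 ± 0.25 with 30 libraries (adjusted p = 0.0611, edgeR) and 1.56 ± 0.30 with 28 (adjusted p = 0.0749, edgeR). PCDH8, a protocadherin gene of neuronal contacts, had -1.31 ± 0.23 (adjusted p = 0.0611, edgeR) and -1.28 ± 0.28 (adjusted p = 0.16, edgeR). Both had 5 TBI animals on 1 side of all 5 controls in the white minus grey difference. DHRS4, which codes for a carbonyl reductase, had 1.15 ± 0.22 and 0.98 ± 0.24, and IL17RD, an inhibitor of FGF signalling, had -0.55 ± 0.21 and -0.92 ± 0.17, in the same order of analyses.

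The components of the contrast were compared one grey region at a time in the fit of 30 libraries. White matter against hippocampus gave 1 gene (0.00622%) and white matter against prefrontal cortex gave 2 (0.0124%). With 28 libraries these comparisons gave 0 genes (0%, with 833 at an unadjusted p under 0.05) and 6 genes (0.0373%). If no gene differed, about 804 of the 16076 tested genes would be expected at that unadjusted level in any of these comparisons. Between the 2 grey regions the TBI effect differed for 0 genes in edgeR (0%), with 404 at an unadjusted p under 0.05 and 0 in DESeq2. Within each of the 3 regions, edgeR called 0 genes (0%) between TBI and control animals. A fit over all 30 libraries, which pools the spread of the regions, called 1332 genes in white matter with all controls, 4 in prefrontal cortex and 0 in hippocampus. At an unadjusted p under 0.05 the regional fits gave 1633 genes in prefrontal cortex and 1730 in hippocampus. White matter had 2579 such genes with all controls and 1338 without Control Animals 1 and 3, which is above both grey regions in the first case and below both in the second. DESeq2 called 355 genes in white matter with all controls, 175 in prefrontal cortex and 72 in hippocampus.

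Below the threshold, the 2 analyses differed widely. With 30 libraries, 977 genes (6.08%) were higher and 1487 (9.25%) lower at an unadjusted p under 0.05. With 28 libraries these were 587 (3.65%) and 516 (3.21%). The excess of lower genes was thus present with the neuron-rich control libraries and absent without them. Of the genes at that level, 547 were shared, which is 22.2% of those of the first analysis and 49.6% of those of the second, and 544 of them had the same sign.

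The precision bounds what could have been missed. The 95% interval of the interaction lay within a 2-fold difference in either direction for 70.1% of the 16076 genes with 30 libraries and for 73.4% with 28. The remaining genes could differ by more than 2-fold without passing.

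Gene lists of cell types and pathways were then described by their counts and medians. Of 363 genes on 1 or more lists that were tested, edgeR called 0 in either analysis. At an unadjusted p under 0.05 there were 42 higher and 70 lower with 30 libraries, and 22 and 21 with 28, while DESeq2 called 16 and 1. The median interaction of all tested genes was 0.0124 log2 units with 30 libraries and 0.00923 with 28. Apart from the first 2 tested members of the neuronal, myelin, precursor, microglial, astrocyte and MHC class II lists, the list genes named below were chosen after their values were seen. None passed the threshold for the white-grey interaction in edgeR, while DESeq2 called C1QC, CD163, GPX1, GRIA3, HMOX1, SELPLG and SLC4A4 among them with 30 libraries and GPX1 with 28.

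Neuronal and synaptic genes gave the widest contrast between the 2 analyses. With 30 libraries, all 14 pan-neuronal genes were negative, 12 of them at an unadjusted p under 0.05, with a median of -1.46. With 28 libraries the median was 0.16, 9 of 14 were positive, and 1 was higher at that level. The excitatory, inhibitory and synaptic vesicle lists moved in the same way, from medians of -1.31, -1.45 and -1.37 to -0.14, 0.04 and 0.06. SNAP25 had an interaction of -1.70 ± 0.66 with 30 libraries (adjusted p = 0.239, edgeR) and 0.09 ± 0.22 with 28 (95% interval -0.38 to 0.55).

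Genes of glutamate receptors and the postsynaptic density kept a smaller negative median, -0.78 with 30 libraries and -0.22 with 28, with 12 and 3 of 17 lower at an unadjusted p under 0.05. GRIA3, an AMPA receptor subunit gene, was in white matter at 31.1 to 154 CPM in controls and 20.2 to 29.9 CPM after TBI. All TBI animals were below all controls, also in the white minus grey difference. Its interaction was -1.21 ± 0.29 (adjusted p = 0.134, edgeR) and -0.49 ± 0.14 (adjusted p = 0.435, edgeR).

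**Figure D4:**
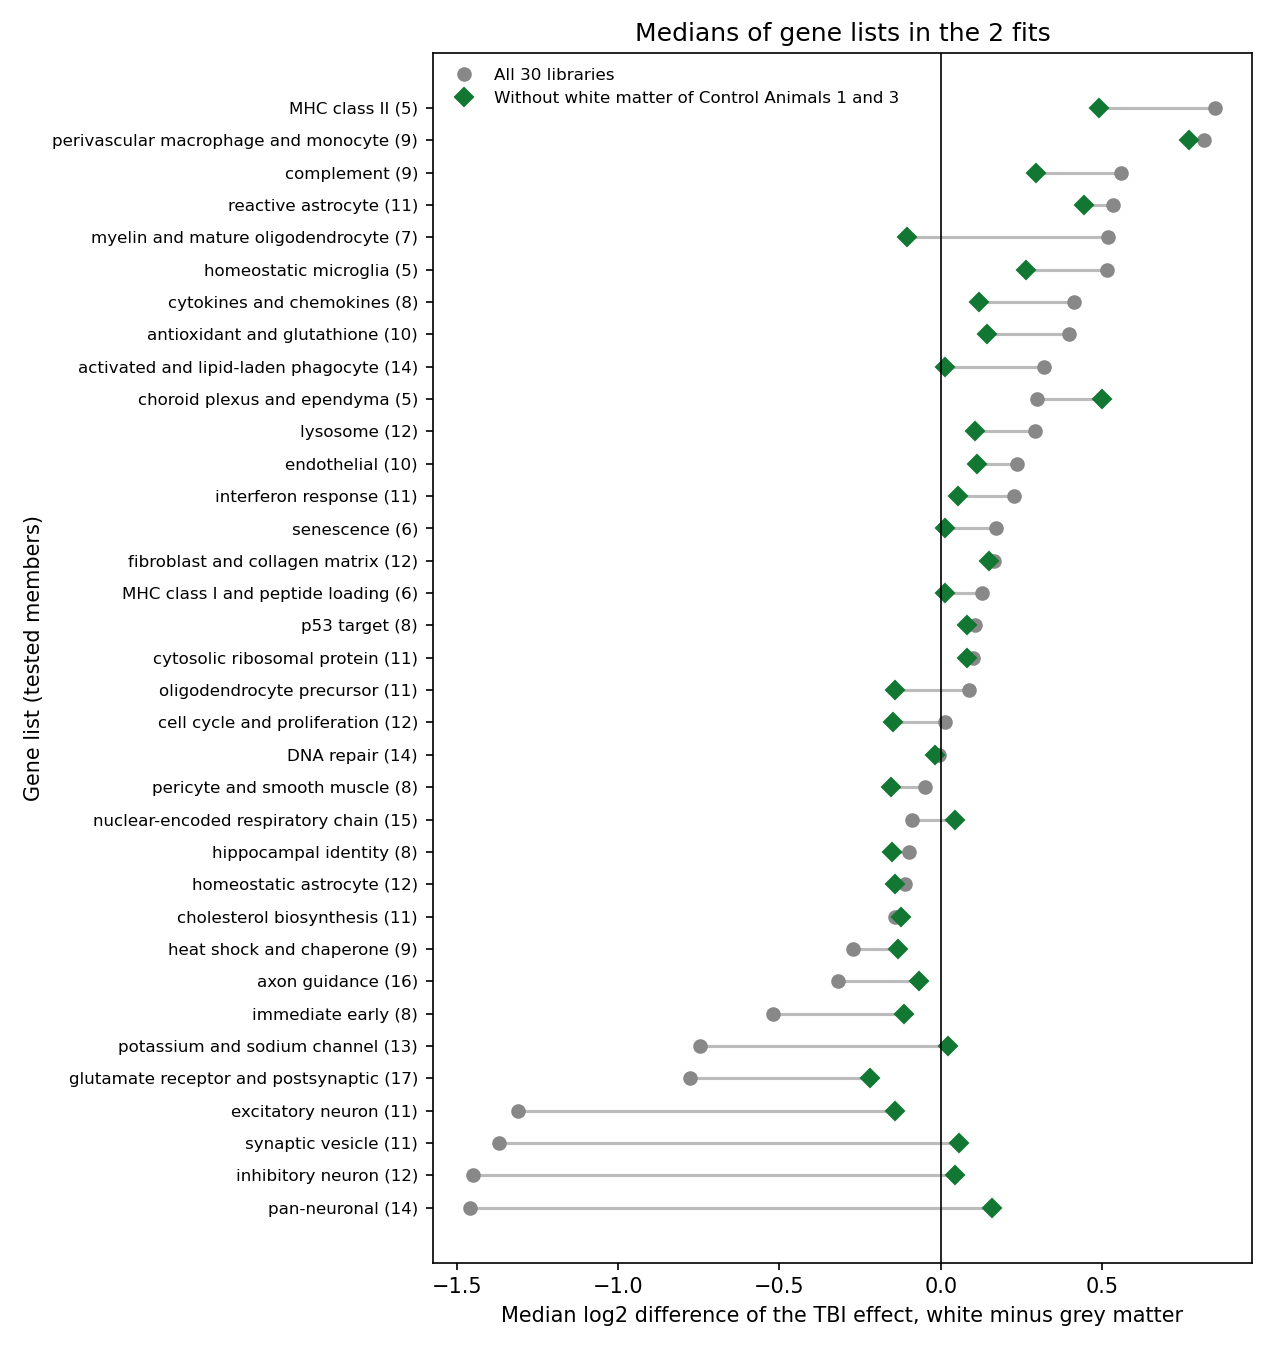
Median white-grey interaction in log2 units of each gene list with at least 5 tested members, with all 30 libraries (circles) and without the white matter of Control Animals 1 and 3 (diamonds), ordered by the first. The pan-neuronal list shifts from -1.46 to 0.16, whereas the perivascular macrophage and monocyte list stays at 0.82 and 0.77.

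Myelin genes, which code for proteins of the oligodendrocyte sheath, shifted between the analyses in the opposite direction to the neuronal lists. Their median was 0.52 with 30 libraries, with 7 of 7 positive, and -0.11 with 28, with 1 of 7 positive, and 0 were past an unadjusted p of 0.05 in either. In the separate regional fits their median TBI effect was 0.05 in white matter, and -0.19 there without Control Animals 1 and 3. It was -0.61 in hippocampus and -0.55 in prefrontal cortex, so the positive median with 30 libraries came with lower values in grey matter.

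Oligodendrocyte precursor genes had medians of 0.09 and -0.14. With 28 libraries, BCAN and VCAN, which code for matrix proteoglycans, were lower at an unadjusted p under 0.05, at -0.45 ± 0.17 and -0.40 ± 0.18. With 30 libraries both were near 0, at -0.03 ± 0.23 and 0.00 ± 0.25. PDGFRA, the growth factor receptor gene that marks precursors, had -0.11 ± 0.14 and 0.01 ± 0.15, and GPR17, a receptor of committed precursors, had 0.56 ± 0.25 and 0.10 ± 0.19.

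Macrophage genes had positive medians that changed little between the analyses. The perivascular macrophage and monocyte list had a median of 0.82 with 30 libraries and 0.77 with 28, and 5 and 4 of 9 tested members were higher at an unadjusted p under 0.05. CD163, a scavenger receptor gene for haemoglobin complexes, was in white matter at 7.18, 12.9, 7.78, 9.82 and 10.5 CPM in Control Animals 1 to 5. In TBI Animals 1 to 5 it was at 31.4, 112, 47.2, 14.5 and 17.5 CPM. All TBI animals were above all controls, with TBI Animal 2 far above the rest. The interaction was 1.39 ± 0.28 (adjusted p = 0.0862, edgeR) and 1.22 ± 0.33 (adjusted p = 0.348, edgeR).

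Other members of that list differed in how the animals were arranged. F13A1, a coagulation factor subunit gene of tissue macrophages, had 0.87 ± 0.36 and 1.25 ± 0.39, and STAB1, a scavenger receptor gene, had 0.87 ± 0.29 and 0.84 ± 0.34. The groups overlapped for both, and TBI Animal 2, the highest in CD163, was the lowest of all in the white minus grey difference of STAB1, at -0.70. CD14, the lipopolysaccharide coreceptor gene, had 0.82 ± 0.33 and 0.89 ± 0.38. MRC1, the mannose receptor gene, had 0.21 ± 0.21 and -0.02 ± 0.20, and LYZ, the lysozyme gene, 0.30 ± 0.29 and -0.12 ± 0.26.

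The alpha haemoglobin gene, a sign of blood in the tissue, was highest in TBI Animal 4, at 124 CPM in white matter, 94.5 in prefrontal cortex and 58.6 in hippocampus. In white matter it was at 0.199 to 1.62 CPM in controls. Its interaction was 0.90 ± 0.41 and 1.04 ± 0.45, and its part in the macrophage values was not tested. CD163 was lowest among TBI white matter libraries in that same animal, at 14.5 CPM.

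Microglial and complement lists had positive medians, higher with 30 libraries than with 28. The homeostatic microglia list had medians of 0.52 and 0.26, with 4 and 3 of 5 tested members positive. SELPLG, a P-selectin ligand gene expressed by microglia, had white minus grey differences of 1.10 to 2.08 log2 units in controls and 2.09 to 2.76 in TBI animals. The groups did not overlap there but nearly met. In white matter alone they overlapped, at 47.5 to 95.4 CPM in controls and 78.7 to 113 CPM after TBI. The interaction of SELPLG was 0.80 ± 0.19 (adjusted p = 0.134, edgeR) and 0.48 ± 0.16 (adjusted p = 0.555, edgeR). P2RY12, the purinergic receptor gene of resting microglia, had 0.52 ± 0.18 and 0.26 ± 0.17. For complement, 4 and 3 of 9 genes were higher at an unadjusted p under 0.05, with medians of 0.56 and 0.29, and 1 was lower at that level with 28. C1QC, a subunit of the C1q initiator, was in white matter at 18.1 to 47.5 CPM in controls and 56.5 to 133 CPM after TBI. The groups overlapped in its white minus grey difference, and its interaction was 1.03 ± 0.24 and 0.80 ± 0.25. The C1 protease genes C1R and C1S had 1.02 ± 0.34 and 0.82 ± 0.29 with 30 libraries, and 1.18 ± 0.41 and 1.03 ± 0.33 with 28.

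Among MHC class II genes, which present antigen to T cells, the medians were 0.85 and 0.49 over 5 tested members. MAMU-DPA had 0.85 ± 0.33 and 0.79 ± 0.37, while CD74, the invariant chain gene, had 0.51 ± 0.32 and 0.09 ± 0.31. Reads of near-identical MHC copies may have been split among them. In the activated and lipid-laden phagocyte list the median was 0.32 with 30 libraries and 0.01 with 28, and 6 and 4 of 14 genes were higher at an unadjusted p under 0.05, among them APOE, a lipid carrier, at 0.53 ± 0.15 and 0.39 ± 0.16.

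The antioxidant list had positive medians. Its member GPX1, a glutathione peroxidase gene that reduces peroxides, had white minus grey differences of -0.38, -0.39, -0.30, -0.32 and -0.30 log2 units in Control Animals 1 to 5. In TBI Animals 1 to 5 they were 0.64, 0.60, 1.39, 0.58 and 0.37 log2 units. The sign differed between the groups in every animal, and Control Animals 1 and 3 did not stand apart in this gene. The interaction was 1.10 ± 0.21 with 30 libraries (adjusted p = 0.074, edgeR) and 1.10 ± 0.25 with 28 (adjusted p = 0.205, edgeR). HMOX1, which codes for the haem-degrading oxygenase, had 0.85 ± 0.20 and 0.66 ± 0.22, also with no overlap of the animals in the white minus grey difference. In white matter alone the groups overlapped for HMOX1, at 3.61 to 11.6 CPM in controls and 5.75 to 12.3 CPM after TBI. The list as a whole had medians of 0.40 and 0.14, with 4 and 2 of 10 higher at an unadjusted p under 0.05.

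**Figure D5:**
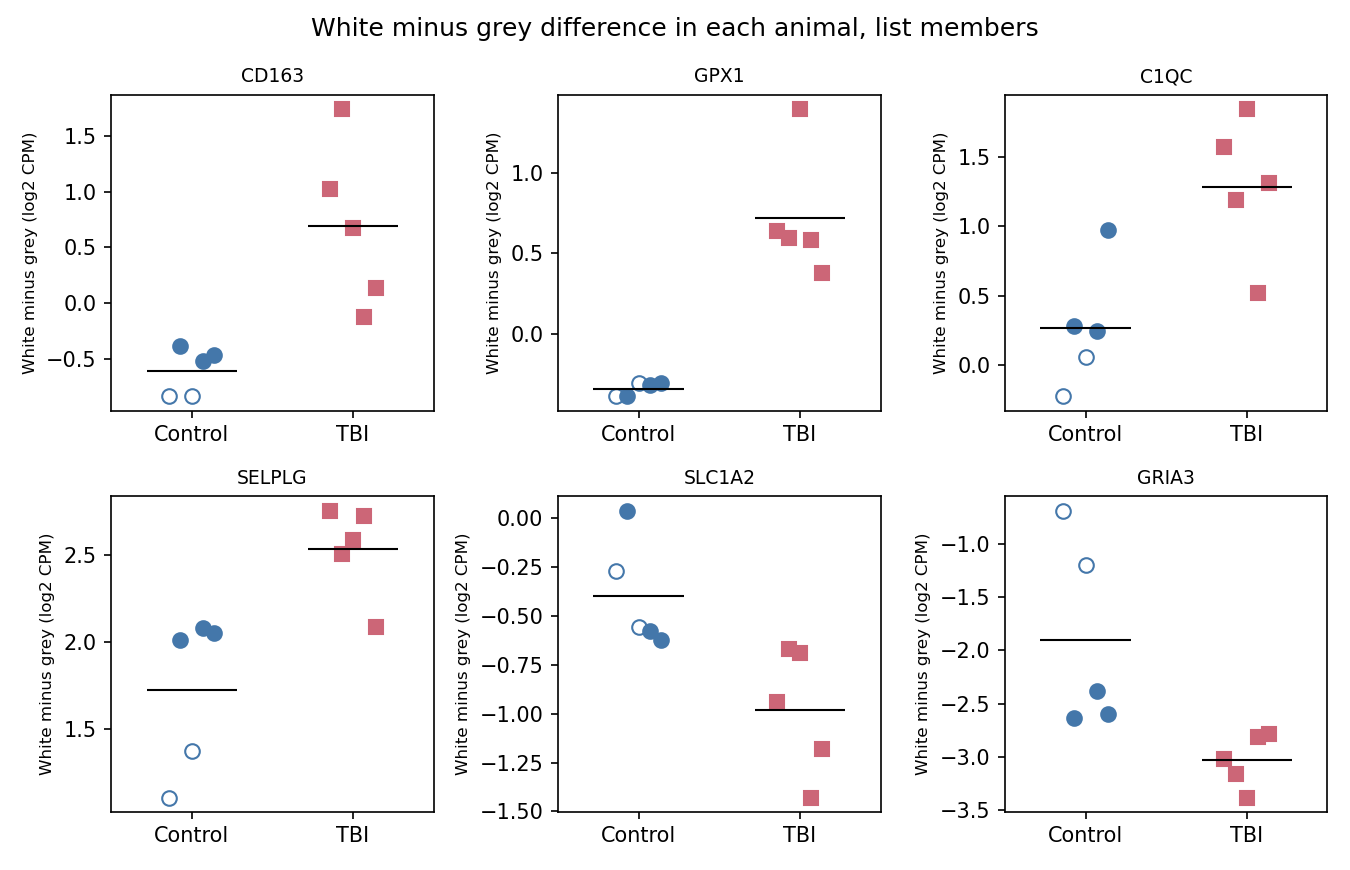
White minus grey difference in log2 CPM of each animal for 6 list members that did not pass the adjusted threshold, with group means as lines and Control Animals 1 and 3 as open circles. For GPX1 all 5 controls lie between -0.39 and -0.30 and all 5 TBI animals between 0.37 and 1.39.

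Astrocyte genes went in both directions. Homeostatic astrocyte genes, which handle glutamate, ions and water, had medians of -0.11 and -0.14, and 4 and 5 of 12 were lower at an unadjusted p under 0.05. Their median TBI effect in the separate regional fits was 0.04 in white matter, and -0.02 there without Control Animals 1 and 3. It was 0.15 in hippocampus and 0.14 in prefrontal cortex, so higher grey matter values entered these negative medians. SLC1A2, the main astrocyte glutamate transporter gene, had white minus grey differences of -0.62 to 0.04 log2 units in controls and -1.43 to -0.67 in TBI animals, without overlap, and an interaction of -0.58 ± 0.18 and -0.60 ± 0.20 (adjusted p = 0.549 with 28 libraries, edgeR). SLC4A4, the bicarbonate cotransporter gene, had -0.54 ± 0.14 and -0.53 ± 0.17 and did not overlap in that difference either. In white matter alone the groups overlapped for both genes. SLC1A2 was there at 1330 to 2480 CPM in controls and 824 to 1670 CPM after TBI. SLC4A4 was at 110 to 162 CPM and 89.1 to 126 CPM, in the same order. Reactive astrocyte genes had medians of 0.53 and 0.44, with 11 and 8 of 11 positive, and 2 and 0 past an unadjusted p of 0.05. GFAP, the astrocyte filament gene, was in white matter at 1760 to 2920 CPM in controls and 3320 to 5070 CPM after TBI, without overlap. Its interaction was 0.42 ± 0.22 and 0.19 ± 0.22. In the separate regional fits its TBI effect was 0.76 log2 units in white matter (0.60 without Control Animals 1 and 3), 0.75 in prefrontal cortex and -0.04 in hippocampus, none of them past the threshold.

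Ion channel genes followed the neuronal lists: potassium and sodium channel genes had medians of -0.75 and 0.02, with 8 and 1 of 13 lower at an unadjusted p under 0.05. Immediate early genes had medians of -0.52 and -0.11, axon guidance genes -0.32 and -0.07, cytokines and chemokines 0.41 and 0.12, and lysosome genes 0.29 and 0.11. Interferon response genes had medians of 0.23 and 0.05, p53 targets 0.11 and 0.08, DNA repair genes -0.01 and -0.02, and endothelial genes 0.24 and 0.11. Cell cycle genes had 0.01 and -0.15, and fibroblast and collagen genes 0.17 and 0.15. In each of the 6 lists from interferon response to collagen, at most 2 members had an unadjusted p under 0.05 in either analysis.

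The white minus grey difference of TBI animals was also set against that of the fWBI animals, in a fit of 30 libraries that used no control animal. This comparison, added after seeing the data, does not depend on the white matter of Control Animals 1 and 3, and the groups also differ in dose, schedule and time since exposure. It gave 1246 of 16076 genes past the threshold (7.75%), of which 576 (3.58%) were higher in white relative to grey matter after TBI than after fWBI and 670 (4.17%) were lower. Without fWBI Animal 2, 728 genes passed. ADAMTSL2 was higher after TBI by 2.64 (adjusted p = 3.38e-06, edgeR), as was ENSMMUG00000000976, by 1.27 (adjusted p = 0.00737, edgeR). OAF differed by -0.03 (adjusted p = 0.958, edgeR) and LTBP2 by 0.63 (adjusted p = 0.445, edgeR). GPX1 was lower after TBI than after fWBI, at -1.33 (adjusted p = 0.00025, edgeR), and so were SELPLG, at -1.23 (adjusted p = 0.0011, edgeR), and ICAM1, at -0.85 (adjusted p = 0.0051, edgeR).

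By list, the same comparison gave lower values after TBI for 6 of 14 activated and lipid-laden phagocyte genes, with 1 higher. Lower values were also found for 5 of 11 reactive astrocyte genes, 5 of 12 lysosome genes and 4 of 9 complement genes, with 0 higher. GPNMB, a glycoprotein gene of lipid-laden phagocytes, was at -4.62 (adjusted p = 3.13e-06, edgeR), and VIM, an intermediate filament gene of reactive astrocytes, was at -1.72 (adjusted p = 6.2e-06, edgeR). Higher values after TBI were found for 8 of 12 fibroblast and collagen genes, with 0 lower. Of oligodendrocyte precursor genes, 6 of 11 were higher, among them BCAN at 1.31 (adjusted p = 3.75e-07, edgeR), and 1 was lower. Of pan-neuronal genes, 1 of 14 was higher and 0 were lower, with 2 lower at an unadjusted p under 0.05. The excitatory, inhibitory and synaptic vesicle lists had 0 in either direction. Of glutamate receptor and postsynaptic genes 5 of 17 were higher, and of potassium and sodium channel genes 4 of 13, with 0 lower in both lists. Cholesterol biosynthesis genes were higher for 4 of 11 and homeostatic astrocyte genes for 3 of 12, also with 0 lower.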

How the data were processed

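RNA-seq libraries of 3 brain regions from TBI and control animals were analysed from 1 table of raw read counts per gene that the authors deposited. The tools FastQC, STAR, featureCounts and DESeq2 appear, with no version, in the submitters' processing notes. Not given in the sources used here were the build, the gene annotation and whether counting used strand, so no coordinates are printed and overlapping antisense genes may share reads. The table held 30246 Ensembl IDs, of which 15769 had a symbol in a table of names. Of the 16076 genes tested, 11748 had one (73.1%).

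Genes were kept by edgeR's default filter on the 6 groups of region and treatment, scaled by TMM, and tested by quasi-likelihood in edgeR 4.0.16 under R 4.3.3, two-sided, with animal as a block and Benjamini-Hochberg adjustment over all tested genes at 0.05. The same genes were tested without the 2 control libraries. Tests within a region used its 10 libraries and no block. SE is the log2 difference divided by the square root of F, and 95% intervals use 16 or 14 residual degrees of freedom. Log2 CPM used a prior count of 2, and a per-animal difference is white matter minus the mean of both grey regions. Exact permutation p-values of single genes are not printed, since the genes were chosen on the same values. The procedure was tested on simulated data.

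The block comes from the labels: the 3 libraries share an animal. Deviations from the group means were correlated between libraries of 1 animal (median r = 0.282 across genes over 30 pairs, 26 of them above 0.1). Animals within a group were separate, and libraries of a group differed by more than sampling noise. In each region TBI and control libraries were compared without batch terms, since no batch is labelled.

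The members and gene lists were chosen with earlier results of these data known. Named genes were those past the threshold with a symbol and a mean of at least 1 CPM (up to 8 in each direction), or the 5 smallest p-values where fewer than 5 passed, up to 3 members past the threshold per list, and, for 7 lists of cell types, the 2 tested members listed first; others are said in the text to be chosen after their values were seen, and 1 gene is not reported here. Alternatives were no block, DESeq2 1.42.0 size factors and test, limma 3.58.1 on per-animal differences, robust fitting, other filters, a minimum difference, all 45 libraries in the fit, 1 grey region at a time, and leaving out each animal or control white matter library; neuronal and myelin covariates and the fWBI comparison were added after seeing the data.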

Additional observations from a re-analysis of the deposited data

Results flagged for a closer look

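Genes are listed here because the test of the difference itself, the white-grey interaction, passed the adjusted threshold in edgeR. With all 30 libraries these were ENSMMUG00000000976 at 2.27, OAF at 1.04 and ADAMTSL2 at 1.37 log2 units. Without the white matter of Control Animals 1 and 3 they were ENSMMUG00000000976 at 1.99, ICAM1 at 1.22, LTBP2 at -3.01 and ENSMMUG00000009980 at -2.75 log2 units. The white minus grey difference of TBI animals against that of fWBI animals passed for 1246 genes.

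Among 60 groups of 5 values checked for a single animal far from the others, 0 passed Dixon's critical value. Chance would give about 1 in 20. The check covered only the genes named by rule and the means of the pan-neuronal and myelin lists. Genes chosen after their values were seen, GPX1 and CD163 among them, were not checked.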

How the results depend on the processing

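With 30 libraries, where 3 genes passed, 1 passed with no replicate block, 201 in DESeq2, 0 in limma on the per-animal differences, 7 with the fWBI libraries added to the fit and 1 with hippocampus as the only grey region. Covariates added after seeing the data gave 7 (pan-neuronal) and 5 (pan-neuronal and myelin), and leaving out 1 animal gave 1 to 138. With 28 libraries, where 4 passed, 32 passed in DESeq2, 0 in limma, 15 with no filter beyond 1 count, 2 with the fWBI libraries and 0 against hippocampus alone; leaving out 1 animal gave 0 to 8.

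For white matter against hippocampus, where 1 gene passed, DESeq2 gave 28, no filter 2, either set of covariates 0, the 28 libraries 0, and leaving out 1 animal 0 to 6. For white matter against prefrontal cortex, where 2 passed, no replicate block gave 1, DESeq2 44, the fWBI libraries 5, the covariates 7 and 6, the 28 libraries 6, and leaving out 1 animal 0 to 10. Between the grey regions each alternative gave 0. Within white matter, where 0 passed, DESeq2 gave 355, a fit over all 30 libraries of the 3 regions 1332, leaving out Control Animals 1 and 3 gave 1, and leaving out 1 animal 0 to 5. In hippocampus DESeq2 gave 72 and leaving out 1 animal 0 to 1. In prefrontal cortex DESeq2 gave 175, the fit over 30 libraries 4, a replicate block on the animal number 4, and leaving out 1 animal 0 to 7; that number does not mark a shared animal between the groups. TBI against fWBI gave 728 to 1522 genes when 1 animal was left out.

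ENSMMUG00000000976 passed in 25 of 26 alternatives with 30 libraries and 17 of 23 with 28, OAF in 12 and 5, ADAMTSL2 in 15 and 4, ICAM1 in 3 and 17, LTBP2 in 5 and 16, and ENSMMUG00000009980 in 4 and 16. The causes of these changes were not tested. The 5 animals a group, and 3 controls for white matter in the second analysis, limit what could be detected, and p-values describe these animals and their labelled doses.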
